A study of Mus musculus with 4 samples.

Results

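The genes described here mark the epithelium of the choroid plexus, the secretory tissue that hangs in the brain ventricles, and they were followed in cerebrum RNA of mice that lack the lysolipid transporter gene Mfsd2a in vascular endothelium. Of 10 listed genes (Ttr, Kl, Sostdc1, Folr1, Prlr, Aqp1, Clic6, Kcne2, Slc4a5 and Otx2), 9 had at least 1 probe set annotated with that symbol alone, out of 18194 genes named on the array. Prlr, the prolactin receptor gene, was not analysed here. The 9 genes had 15 probe sets, and each gene was read at its brightest probe set, by the mean of log2 signals on the 4 arrays. The list was given as gene names with no threshold on these values, but earlier results of these data were known when it was made.

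The 4 groups were single pools, each of equal RNA amounts of 5 to 6 cerebral hemispheres and each read on 1 array. 2aECKO mice carry floxed Mfsd2a and Tie2-cre, which is active in endothelium and is also known to recombine in blood cells, and their pool was compared with a pool of floxed mice without cre (2afl/fl), both of postnatal day 9. 2aiECKO mice carry floxed Mfsd2a and the inducible Cdh5ERT2-cre, which acts in endothelium after 4-hydroxytamoxifen (4-OHT) was injected from the day of birth, and their pool was compared with floxed mice given 4-OHT (2afl/fl 4-OHT), both of postnatal day 8. All 4 pools thus carried the floxed allele, and the paper's methods give PBS perfusion before the cerebrum was taken. One label of the 2aiECKO pool, its source name, says 2aECKO, but title and genotype both say 2aiECKO and were followed. The labels give the tissue as brain and do not say how far each dissection took in the ventricles.

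The choroid plexus epithelium draws water, ions and selected solutes from leaky capillaries and releases them as cerebrospinal fluid. It also secretes carrier proteins and takes up vitamins and hormones for the brain. Its tight junctions, not the endothelium, form the barrier at this site, and in mice the homeodomain factor Otx2 is needed for the plexus to form and to be kept.

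The single Mfsd2a probe set read 410 in 2aECKO against 423 in 2afl/fl (log2 fold -0.05) and 299 in 2aiECKO against 369 in 2afl/fl 4-OHT (log2 fold -0.30). Other brain cells also express Mfsd2a and where the probe set lies relative to the floxed exons is unknown here, so its level is no check of the labels. Median signals were 75.5 in 2aECKO, 74.1 in 2afl/fl, 49.2 in 2aiECKO and 48.7 in 2afl/fl 4-OHT. Sorted log2 signals differed by at most 0.07 within the first pair and 0.05 within the second but by up to 0.79 between the 2 controls, and folds were therefore taken within a pair. The ratio of the 3′ to the 5′ control probe set, a sign of RNA integrity, was 1.30 for beta-actin in 2aECKO and 1.28 in 2afl/fl, and 1.22 in 2aiECKO and 1.20 in 2afl/fl 4-OHT. With 1 array per group there was no replicate, so every value below is a description of these pools with no test, and their number limits the precision.

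All 9 measured choroid plexus genes had a higher signal in the knockout pool than in its control in both models, by small amounts for most and by more for Otx2. Log2 folds lay between 0.13 (Kl) and 0.65 (Otx2) in 2aECKO and between 0.02 (Sostdc1) and 0.56 (Otx2) in 2aiECKO. A log2 fold above 0 was found for 43.9 percent of all named genes in 2aECKO and 44.9 percent in 2aiECKO. The median log2 fold of the 9 genes was 0.24 in 2aECKO and 0.16 in 2aiECKO, against -0.01 and 0.00 over all named genes, and without Otx2 it was 0.22 and 0.16. A gene was counted as higher by the paper's own filter, a knockout signal of 50 or more together with a log2 fold of 0.32 or more, which is 5 to 4 on the linear scale. By it 3 of the 9 genes, Otx2, Kcne2 and Aqp1, were higher in 2aECKO, where 1.60 percent of all named genes were, and 1 of the 9, Otx2, was higher in 2aiECKO, where 1.248 percent were. None was lower by the mirror rule (a control signal of 50 or more and a fold of 0.8 or less), which 1.26 percent of named genes met in 2aECKO and 0.396 percent in 2aiECKO. The 3 genes counted as higher were all dim: at a minimum signal of 100 the count was 0 in both models, and at a fold of 1.5 it was 1 in 2aECKO and 0 in 2aiECKO. Shares of all named genes past those 2 rules are not given, so these counts have no background beside them. In bulk tissue more cells of a type and more RNA per cell cannot be told apart.

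**Figure D1:**
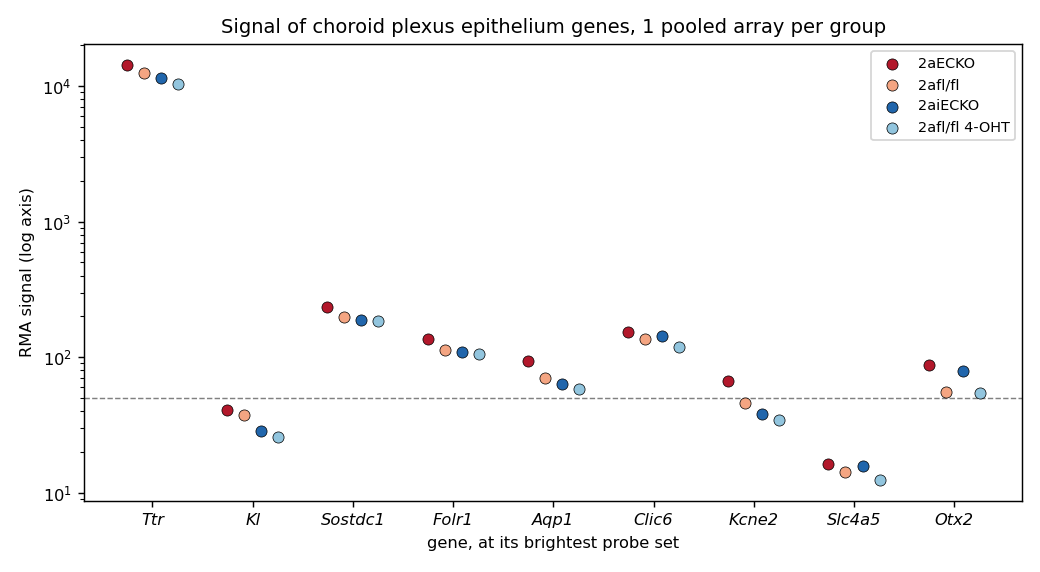
RMA signal (log axis) of 9 choroid plexus genes at their brightest probe set in 2aECKO, 2afl/fl, 2aiECKO and 2afl/fl 4-OHT; each point is 1 pooled array and the dashed line marks a signal of 50. Within each pair the knockout point is above its control for every gene, and Kl and Slc4a5 stay under the line on all 4 arrays.

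Secreted proteins come first. Ttr encodes transthyretin, which carries thyroxine and the retinol-binding protein in cerebrospinal fluid. Its brightest probe set (1454608_x_at) gave 14391 in 2aECKO and 12500 in 2afl/fl, a log2 fold of 0.20, and 11583 in 2aiECKO and 10292 in 2afl/fl 4-OHT, a log2 fold of 0.17. These signals were close to the top of the arrays, whose highest values were 19129, 18919, 15623 and 15474 in the same order. The dimmest of the 4 Ttr probe sets (1451580_a_at) gave 8630 in 2aECKO and 6297 in 2afl/fl, a log2 fold of 0.45, and 6894 in 2aiECKO and 5862 in 2afl/fl 4-OHT, a log2 fold of 0.23. The other two lay between, at 0.25 and 0.31 on the log2 scale for the 2aECKO pool and at 0.18 and 0.23 for the 2aiECKO pool. So all 4 Ttr probe sets were higher in both knockout pools, the log2 fold in 2aECKO was smaller the brighter the probe set, and only the dimmest passed the fold of the filter. Whether the brightest spots were near saturation was not tested.

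Kl encodes klotho, a co-receptor for FGF23 that is also shed into cerebrospinal fluid. Its brighter probe set gave 40.7 in 2aECKO and 37.1 in 2afl/fl, and 28.7 in 2aiECKO and 25.7 in 2afl/fl 4-OHT, log2 folds of 0.13 and 0.16, all at a signal under 50. The dimmer probe set gave 14.6 in 2aECKO and 16.8 in 2afl/fl, a log2 fold of -0.21, and 14.7 on both arrays of the other pair. Kl therefore had no direction that its probe sets shared in 2aECKO. Sostdc1 encodes a secreted antagonist of BMP and Wnt signals. It gave 236 in 2aECKO and 199 in 2afl/fl, a log2 fold of 0.24, and 189 in 2aiECKO and 186 in 2afl/fl 4-OHT, a log2 fold of 0.02. At its dimmer probe set the log2 fold was the smaller in 2aECKO, at 0.05, and the larger in 2aiECKO, at 0.15.

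Of the receptors only Folr1 was measured. It encodes the folate receptor through which the plexus moves folate into cerebrospinal fluid. Its signal was 137 in 2aECKO and 113 in 2afl/fl, a log2 fold of 0.27, and 109 in 2aiECKO and 105 in 2afl/fl 4-OHT, a log2 fold of 0.05.

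Genes of water and ion movement held 2 of the 3 genes counted as higher in 2aECKO. Aqp1 encodes the water channel of the apical membrane, and its single probe set gave 93.5 in 2aECKO and 70.0 in 2afl/fl, a 1.33-fold difference, and 63.4 in 2aiECKO and 58.0 in 2afl/fl 4-OHT, a 1.09-fold difference. Kcne2 encodes an accessory subunit of potassium channels, which in mice sits in the apical membrane of the plexus. Its signal was 66.8 in 2aECKO and 45.5 in 2afl/fl, a 1.47-fold difference, and 38.3 in 2aiECKO and 34.2 in 2afl/fl 4-OHT, a 1.12-fold difference. Kcne2 passed the filter only through the 2aECKO array, since its signal was under 50 on the other 3. Both genes had the larger fold in 2aECKO, by 0.29 (Aqp1) and 0.39 (Kcne2) on the log2 scale, a difference that was not tested.

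Clic6 and Slc4a5 went the other way between the models. Clic6, of the chloride intracellular channel family, gave 152 in 2aECKO and 136 in 2afl/fl, a log2 fold of 0.16, and 144 in 2aiECKO and 119 in 2afl/fl 4-OHT, a log2 fold of 0.28. Its dimmer probe set kept that order, with log2 folds of 0.07 and 0.22. Slc4a5 encodes a sodium bicarbonate cotransporter and gave only 16.4 in 2aECKO and 14.3 in 2afl/fl, and 15.7 in 2aiECKO and 12.4 in 2afl/fl 4-OHT. Its fold of 1.27 in 2aiECKO would count as higher with no minimum signal, but these values are too low to be read as a level.

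**Figure D2:**
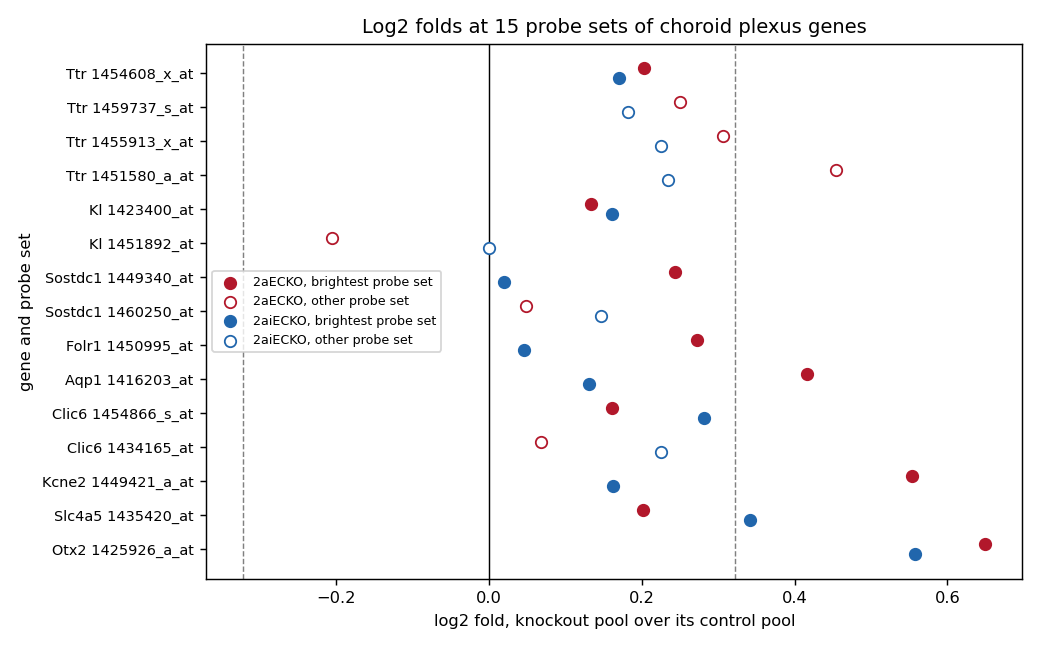
Log2 fold of the knockout pool over its control at each of 15 probe sets of 9 choroid plexus genes, 2aECKO in red and 2aiECKO in blue, with filled points for the brightest probe set of a gene and dashed lines at the fold of the filter in either direction. In 2aECKO 14 of 15 probe sets lie above 0 and 1, of Kl, below. In 2aiECKO 14 lie above and that of Kl is at 0. Of all 34958 probe sets with 1 symbol, 43.8 percent were above 0 in 2aECKO and 44.7 percent in 2aiECKO.

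Otx2, the transcription factor of the group, had the largest fold of the 9 genes in both models. Its single probe set (1425926_a_at) gave 86.9 in 2aECKO and 55.4 in 2afl/fl, a 1.57-fold difference, and 79.7 in 2aiECKO and 54.2 in 2afl/fl 4-OHT, a 1.47-fold difference. It was the only one of the 9 genes past the filter in both models. Ranked by log2 fold among 18194 named genes, Otx2 was number 34 in 2aECKO and number 66 in 2aiECKO. No other gene of the list came so high in both: Kcne2 was number 69 in 2aECKO and 1916 in 2aiECKO, Aqp1 186 and 2651, and Slc4a5 1392 and 353. Otx2 is also known from other diencephalic and midbrain cells, the pineal gland and the eye, whose marker lists are given below.

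Sequences before the annotated starts of the 3 genes counted as higher are shown to let their promoters be compared. RefSeq promoter windows on GRCm38.p6 were at hand for 6 of the 10 listed genes, 12 windows in all, and the 250 bases before each start were read. The searches were for TAATCC, the core that OTX-type homeodomains bind, and for the TATA box TATAAA, each on both strands (GGATTA and TTTATA); a match is a description of letters and not a bound site. TAATCC was in 6.25 percent of 32851 windows of this length and TATAAA in 12.4 percent. In the most upstream windows below, 5′ to 3′, capitals mark a match. They lie at chr14:48667645-48667894 on the minus strand for Otx2, chr16:92292139-92292388 on the plus strand for Kcne2 and chr6:55336049-55336298 on the plus strand for Aqp1.
Otx2: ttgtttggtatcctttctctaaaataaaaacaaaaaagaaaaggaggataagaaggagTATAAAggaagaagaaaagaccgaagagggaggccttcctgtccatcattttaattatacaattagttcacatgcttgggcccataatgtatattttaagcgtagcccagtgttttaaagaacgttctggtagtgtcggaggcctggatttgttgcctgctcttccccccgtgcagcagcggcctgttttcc
Kcne2: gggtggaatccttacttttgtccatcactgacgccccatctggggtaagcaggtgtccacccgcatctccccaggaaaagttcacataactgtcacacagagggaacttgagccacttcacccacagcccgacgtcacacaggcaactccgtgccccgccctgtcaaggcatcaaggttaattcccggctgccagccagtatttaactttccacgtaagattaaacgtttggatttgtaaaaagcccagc
Aqp1: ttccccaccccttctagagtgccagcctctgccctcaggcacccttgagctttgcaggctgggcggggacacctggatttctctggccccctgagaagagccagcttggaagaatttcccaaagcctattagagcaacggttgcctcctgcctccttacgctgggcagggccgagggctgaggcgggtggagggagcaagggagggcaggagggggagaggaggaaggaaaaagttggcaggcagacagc
Capitals appear once, as a TATAAA in the Otx2 window. GC content was 42.0 percent for Otx2, 52.4 percent for Kcne2 and 62.0 percent for Aqp1, against a median of 52.4 percent over all windows, so the 3 windows had little in common by these measures.

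One of the 12 windows held the OTX core. It belongs to Otx2 itself, before the third of its annotated starts, counted from the most upstream one, at chr14:48665110-48665359 on the minus strand. The core begins 211 bases before that start, and the 30 bases around it are shown with the core on its complementary strand in capitals.
Otx2, inner start: cgtgtgcccctcGGATTAtctcgttagttt
The array does not tell the starts of Otx2 apart.

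Set side by side, the 9 genes had a larger log2 fold in 2aECKO in 6 cases and in 2aiECKO in 3 (Kl, Clic6 and Slc4a5). The median difference, 2aECKO minus 2aiECKO, was 0.09. The pairs differ in age, cre line and 4-OHT, which cannot be told apart here, and the difference between the models was not tested.

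**Figure D3:**
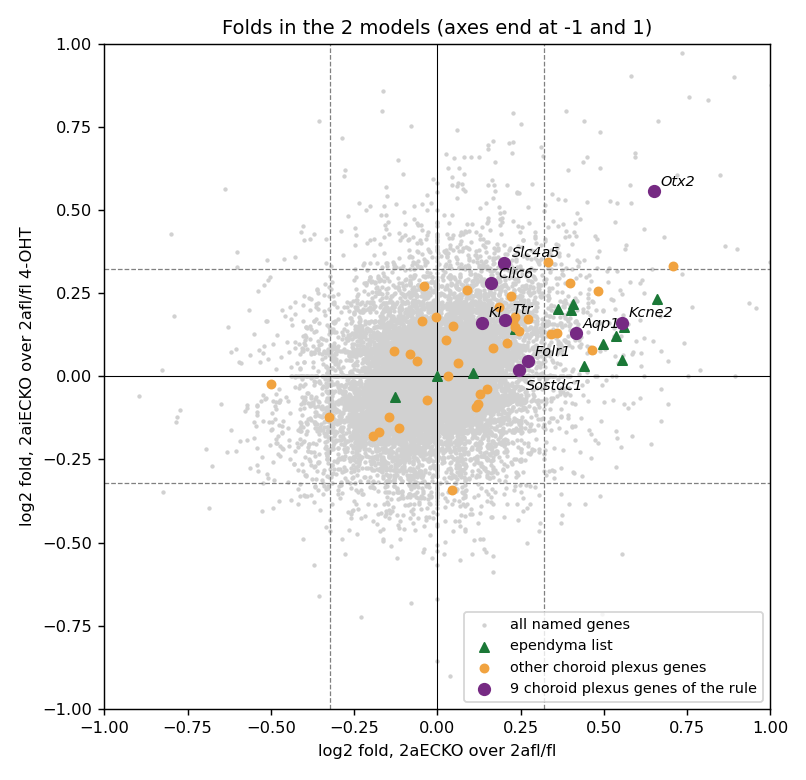
Log2 fold in 2aECKO over 2afl/fl (horizontal) against log2 fold in 2aiECKO over 2afl/fl 4-OHT (vertical) for 9 choroid plexus genes (purple, named), 39 other choroid plexus genes (orange), 13 ependyma genes (green triangles) and all 18194 named genes (grey, 13 of them outside the axes); each value is from 1 pooled array per group and dashed lines mark the fold of the filter. The 9 genes lie above 0 on both axes, with Otx2 farthest out, and 9 of the 13 ependyma genes were counted as higher in 2aECKO.

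Other genes known from the choroid plexus epithelium followed less closely. Of 40 further genes, 39 were measured and 35 had a mean signal of at least 50. In 2aECKO 6 were higher, 2 lower and 31 in between, with a median log2 fold of 0.12 and 26 above 0. In 2aiECKO 2 were higher, 0 lower and 37 in between, with a median of 0.10 and 26 above 0. Calml4, a calmodulin-like gene, and Cp, which encodes the copper-carrying ceruloplasmin, were higher in both. Calml4 gave 125 in 2aECKO and 76.6 in 2afl/fl, and 89.8 in 2aiECKO and 71.4 in 2afl/fl 4-OHT, log2 folds of 0.71 and 0.33. Cp gave 140 in 2aECKO and 111 in 2afl/fl, and 102 in 2aiECKO and 80.7 in 2afl/fl 4-OHT, log2 folds of 0.33 and 0.34.

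The other genes of that list past the rule were so in 2aECKO alone. Igf2, a growth factor of the plexus and the meninges, was at a log2 fold of 0.48 in 2aECKO, with 0.26 in 2aiECKO, and Ecrg4, a secreted peptide precursor, at 0.40, with 0.28. Car14, a carbonic anhydrase, had 0.34 and 0.13, and Sulf1, a heparan sulfatase, 0.36 and 0.13. Col8a1, a collagen gene, was lower in 2aECKO at -0.33, with -0.12 in 2aiECKO, and Trpv4, a cation channel of the plexus, at -0.50, with -0.02. Among the brightest of the list beside Igf2, Igfbp2 had -0.18 and -0.17 and the thyroxine and organic anion transporter Slco1c1 had -0.19 and -0.18. Both are also made by other brain cells, and so are many of this list. Of transporters and junction genes set beside the 4 channel genes above, Kcnj13, Slc12a2 and Cldn2 were all in between in both models, at 0.17, -0.0033 and 0.23 (log2 folds) for the 2aECKO pool and at 0.08, 0.18 and 0.15 for the 2aiECKO pool.

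Markers of ependyma, the ciliated lining of the ventricles, and of leptomeninges and stroma had medians above 0 in both models, as the choroid plexus genes had. Of 13 ependyma genes 9 were higher in 2aECKO and 0 lower, with a median log2 fold of 0.41 against 0.24 for the 9 choroid plexus genes, while 0 were higher in 2aiECKO, where the median was 0.12. Foxj1, the regulator of motile cilia, gave 95.2 in 2aECKO and 70.2 in 2afl/fl, a log2 fold of 0.44, and 69.5 in 2aiECKO and 68.0 in 2afl/fl 4-OHT, a log2 fold of 0.03. The summed signal of the list was 1670 in 2aECKO, 1247 in 2afl/fl, 1192 in 2aiECKO and 1088 in 2afl/fl 4-OHT. Of 12 genes of the leptomeninges and stroma the filter counted 6 as higher for 2aECKO but 3 for 2aiECKO, with medians of 0.29 and 0.17. Their sums were 6767, 5129, 3585 and 3203 in the same order of pools. The part of such neighbouring tissue in the choroid plexus values was not tested.

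Regions that a cerebrum dissection could take in to different degrees were read in the same way. Of 14 hypothalamic genes the filter counted 2 as higher for 2aECKO but 1 for 2aiECKO, with median log2 folds of 0.20 and 0.05, and the summed signal was 2492 in 2aECKO, 2086 in 2afl/fl, 2129 in 2aiECKO and 1928 in 2afl/fl 4-OHT. Avp, the vasopressin gene, was the one higher in both, at 0.58 in each. For 10 thalamic genes the medians were 0.16 and 0.08, with 2 higher in 2aECKO and 0 in 2aiECKO. Neocortical markers stood on the other side, with medians of -0.08 and -0.13 over 8 genes and sums of 11822 in 2aECKO, 12522 in 2afl/fl, 10060 in 2aiECKO and 10893 in 2afl/fl 4-OHT. For 8 striatal genes they were -0.12 and 0.05, for 7 hippocampal genes 0.07 and 0.01, and for 12 genes of midbrain, cerebellum and hindbrain -0.02 and -0.03. So the ependymal, meningeal, hypothalamic, thalamic and hippocampal medians were above 0 in both models, as for the 9 choroid plexus genes. The medians of neocortex and of midbrain, cerebellum and hindbrain were below 0 in both. Such signs were not particular to these regions. Astrocyte, microglial and nuclear-retained RNA medians, given below, were above 0 in both models too, and neuronal and red cell medians below 0. The part of dissection content in the choroid plexus values was not tested.

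Lists of the eye and of the pituitary and pineal gland were read because eye and pineal gland also use Otx2. A mean signal of 50 or more was reached by only 4 of the 9 eye genes and 3 of the 7 pituitary and pineal genes. The part of such tissue in the Otx2 folds was not tested. For 9 eye genes the median was 0.08 for 2aECKO (log2 fold) but -0.24 for 2aiECKO, where 4 crystallin genes were lower. These 4 were highest in the 2afl/fl 4-OHT control: Cryba1 read 149 there, 13.6 in 2aiECKO, 16.6 in 2afl/fl and 19.6 in 2aECKO. Cryaa read 147, 26.8, 61.0 and 48.7 in the same order. The part of eye tissue in that control pool was not tested. Crx, a homeodomain gene of retina and pineal gland, had 0.01 and -0.20 at signals under 50. For 7 pituitary and pineal genes the medians were 0.04 and -0.09, with Lhb, a pituitary hormone subunit, lower in both models at -0.39 and -0.36. For 8 endothelial genes, the cells in which Mfsd2a was deleted, they were 0.04 and -0.09.

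Astrocyte genes had medians of 0.23 in 2aECKO and 0.30 in 2aiECKO over 8 genes, microglial genes of 0.08 and 0.45 over 7, and neuronal genes of -0.06 and -0.03 over 8. Nuclear-retained RNAs had 0.41 and 0.16 over 7, so their median was above that of the 9 choroid plexus genes in 2aECKO and about equal to it in 2aiECKO. For 4 red cell genes the medians were -0.04 and -0.15, with Alas2, an enzyme of heme synthesis, at 1.05 in 2aECKO and -0.51 in 2aiECKO.

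**Figure D4:**
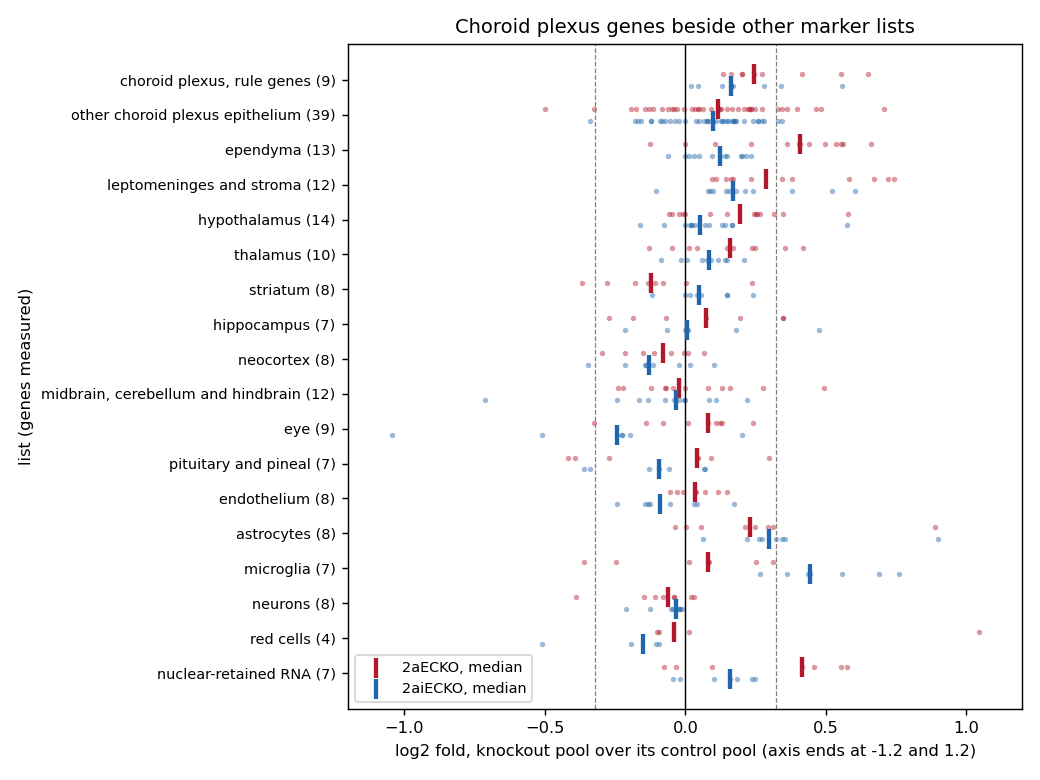
Log2 folds of the 9 choroid plexus genes (top) and of 17 marker lists in 2aECKO (red) and 2aiECKO (blue) over their controls; small points are genes, bars are list medians, dashed lines mark the fold of the filter, and the crystallin genes Cryaa and Cryba1 lie outside the axis in 2aiECKO. The ependyma median of 0.41 in 2aECKO is above the 0.24 of the choroid plexus genes, and the neocortex medians of -0.08 and -0.13 are below 0.

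Last, the 2 control pools were set against each other after quantile normalization over all 4 arrays, which brings the pairs onto 1 scale. Of the 9 genes 8 had a higher level in 2afl/fl 4-OHT than in 2afl/fl, with a median log2 difference of 0.30 against 0.07 over all named genes. A lower level in 2afl/fl 4-OHT was found for 1 of the 9 genes and for 7168 of all 18194 named genes. Otx2 was at 68.1 in 2afl/fl 4-OHT and 45.2 in 2afl/fl, a log2 difference of 0.59, nearly the size of its fold in 2aECKO, and Folr1 was at 127 and 96.8, a difference of 0.39. At the brightest probe sets Ttr alone was lower, at 11222 and 11554, a difference of -0.04. Its other probe sets differed by 0.13, -0.02 and 0.16, from bright to dim. The dimmer probe set differed by -0.12 for Sostdc1, 0.53 for Kl and 0.08 for Clic6. On this scale the 2afl/fl pool had the lowest level of the 4 for 8 of the 9 genes at their brightest probe sets. The share of all named genes with that order is not given. With no allowance for a shift over all named genes, the median gap of 0.30 between the 2 floxed pools without cre was larger than either median fold of a knockout. On this scale those folds were 0.25 in 2aECKO and 0.15 in 2aiECKO. Over all named genes the gap was 0.07 and the median folds were -0.01 and -0.01. Set against these, the gap was no longer larger than the fold in 2aECKO but was still larger than that in 2aiECKO. Age, 4-OHT, array scale and differences between single pools, such as dissection content, cannot be told apart in the gap between the controls. With the other pair's control on the same scale, the median log2 fold of the 9 genes was -0.05 in 2aECKO, the opposite sign, and 0.43 in 2aiECKO. Over all named genes that median was -0.08 in 2aECKO, lower than that of the 9 genes, and 0.08 in 2aiECKO. Kl, Folr1, Clic6, Sostdc1 and Slc4a5, 5 of the 9 genes, were then below 0 in 2aECKO, as was the median over all named genes. The share of all named genes below 0 there is not given, so this count is no result about the 9 genes.

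**Figure D5:**
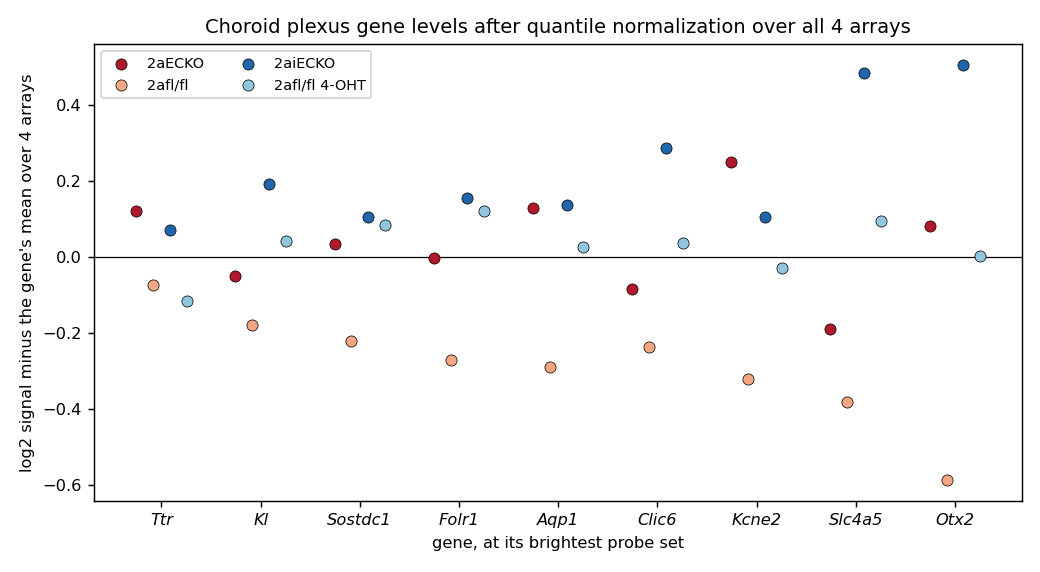
Log2 signal of 9 choroid plexus genes minus each gene's mean over the 4 arrays, after quantile normalization over all 4 arrays, in 2aECKO, 2afl/fl, 2aiECKO and 2afl/fl 4-OHT; each point is 1 pooled array. At the brightest probe sets, which are shown, the 2afl/fl points are the lowest for every gene but Ttr. The gap between the controls for Otx2 is 0.59.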

How the data were processed

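RNA of 4 pooled cerebrum samples was measured on 1 Affymetrix mouse expression array each. The deposited intensity values are on a linear scale and were made by the authors with RMA, which adjusts background and normalizes by quantiles. In the methods the paper names the affy package, while the submitters' notes name Partek 6.6. No genome build for the deposited values is given in the sources used here; GRCm38.p6 applies to the RefSeq windows only. Log2 of the intensity was taken and folds were computed within a pair, with no test.

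The array's 45101 probe sets divide into 34958 with 1 symbol, 932 with several and 9211 unnamed here. The 9 genes and the 17 marker lists were chosen with earlier results of these data known. Named in the text are all listed genes, Mfsd2a, and other choroid plexus genes past the rule with the brightest of that list. The rule also allowed the brightest gene and those past the filter in other lists, of which only a few are named, chosen after their values were seen; Kcnj13, Slc12a2, Cldn2, Foxj1 and Crx were added for their roles after their values were seen. Of 207 genes in the lists 190 were measured. Signals of at least 50 were found at 59.4 percent of probe sets in 2aECKO, 59.1 percent in 2afl/fl, 49.7 percent in 2aiECKO and 49.5 percent in 2afl/fl 4-OHT. The counting was tested on simulated folds in brighter genes only, so calls near a signal of 50 were not covered. Python 3.11.15, numpy 2.4.6, pandas 2.3.3, statsmodels 0.14.6 and matplotlib 3.10.9 were used.

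Tried as alternatives were averaging a gene's probe sets and leaving out probe sets with the suffix _s_at, _x_at or _a_at. Further ones were a loess trend (fraction 0.3), median centring, quantile normalization over 4 arrays, other controls, other minimum signals and a fold of 1.5. Leaving out only _s_at and _x_at probe sets was added after the data were seen.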

Additional observations from a re-analysis of the deposited data

Results flagged for a closer look

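4 marker lists set beside the choroid plexus genes had median log2 folds of opposite sign in the models: striatum (-0.12 in 2aECKO and 0.048 in 2aiECKO), eye (0.080 and -0.24), pituitary and pineal (0.042 and -0.094) and endothelium (0.036 and -0.091). With 1 pooled array per group the difference was not tested. None of the 9 choroid plexus genes had folds of opposite sign at its brightest probe set. No group had enough arrays to look for a sample far from the others.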

How the results depend on the processing

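No paired analysis was possible because each group is 1 pooled array. Loess trend removal, median centring, quantile normalization over 4 arrays, the mean of all probe sets and leaving out _s_at and _x_at probe sets moved the median log2 folds of the 9 genes by less than 0.1 and kept the counts of higher genes within 1.5 times. The last of these added Ttr to the higher genes in 2aECKO, making 4, since its remaining probe set had a log2 fold of 0.45. Of all genes named by the probe sets kept there, 1.66 percent were higher in 2aECKO. With only probe sets without a suffix, 6 genes were left, without Ttr, Kcne2 and Otx2. Of these 1 was counted as higher in 2aECKO and 0 in 2aiECKO, beside 1.77 and 1.14 percent of all named genes left. The genes counted as higher were 0 and 0 at a minimum signal of 100, 1 and 0 at a fold of 1.5, and 2 in 2aiECKO with no minimum. Shares over all named genes are not given for other minimum signals or the fold of 1.5. With the other control after quantile normalization the median reversed to -0.050 in 2aECKO and was 0.43 in 2aiECKO, with 0 and 5 higher genes. Over all named genes the medians were then -0.082 and 0.076, and 5.83 and 11.5 percent were counted as higher. There 5 of the 9 genes were below 0 in 2aECKO: Kl at -0.09, Folr1 at -0.12, Clic6 at -0.12, Sostdc1 at -0.05 and Slc4a5 at -0.28. The median over all named genes was below 0 there too, and the share of them below 0 is not given. Slc4a5 was at -0.05 with the mean of both controls, and Kl at -0.04 with the mean of its probe sets. With the mean of both controls the medians were 0.10 and 0.27, with 2 higher genes in 2aECKO (Otx2 and Kcne2) and 2 in 2aiECKO (Clic6 and Otx2). Over all named genes the medians were then -0.048 and 0.037, and 2.54 and 3.48 percent were counted as higher. By construction, these settings move the fold by the gap between the control pools or a part of it, downward in 2aECKO and upward in 2aiECKO for every gene but Ttr. No gene of the 9 passed the rule for lower genes, which counted 0 of them under each alternative run. Of 138 values of single genes 104 moved by less than 0.1 and 34 by more. Array signal limits Kl, Kcne2 and Slc4a5 most, whose mean signal was under 50.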
